A study of Homo sapiens with 79 samples.

Results

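The cohesin and CTCF mRNAs are the transcripts of STAG1, STAG2, SMC1A, SMC3, RAD21, NIPBL, PDS5A, PDS5B and CTCF. They were chosen by gene symbol, with earlier results of these data known, and form 9 of the 48453 genes and 77 of the 185661 isoforms quantified. All 9 genes and 76 of their isoforms had enough signal to be tested. K562, an established human erythroleukemia cell line, was cross-linked with formaldehyde and sonicated, and a protein was recovered from the lysate with an antibody together with its cross-linked RNA (fRIP-Seq). The RNA associated with each of 24 proteins was sequenced in 70 fRIP libraries (3 per protein, and 2 each for EZH2 and STAG2), and 9 libraries of RNA from the same kind of lysate, in 3 labelled sets of 3, served as input. The fRIP groups differ in the antibody, and by the labels no group carries a genetic change or received a drug. The proteins STAG2 and CTCF are both products of these mRNAs and targets of a fRIP, and their fRIPs come first. In the study's design, STAG2 fRIP serves as a control for RNA that comes down without specific binding. The paper nonetheless reported that both STAG2 libraries strongly enriched a small set of transcripts, STAG2 mRNA among them. From this it proposes that the experiment is valid.

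Cohesin is a ring that holds DNA strands together. SMC1A and SMC3 are coiled-coil ATPases that form most of the ring, RAD21 is the kleisin that closes it, and STAG1 and STAG2 are alternative subunits that dock on RAD21. NIPBL loads the ring on chromatin, PDS5A and PDS5B regulate its release and maintenance, and CTCF is a zinc finger protein that binds DNA and stops the moving ring at the borders of chromatin loops. The question here is how the mRNAs of this machinery were represented in the RNA that came down with each protein, relative to input.

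Levels are given as FPKM, fragments per kilobase of transcript scaled to the mapped fragments of the library, a unit that allows for transcript length and so permits comparison between genes. Estimated depth was 1.80 M to 54.9 M fragments (M, mega) per fRIP library, with a median of 12.3 M, and 11.1 M to 28.3 M per input library. The STAG2 libraries held 8.37 M to 8.96 M, the CTCF libraries 10.5 M to 14.7 M and the ADAR libraries 1.80 M to 2.17 M. Erythroid markers of K562 were present in input (GATA1 82.2 FPKM, TAL1 44.5, KLF1 38.3, LMO2 32.4, HBG1 263, HBG2 866, HBE1 540), whereas the lymphoid genes CD3E (0.177 FPKM) and MS4A1 (0.006) were low. Whether a lower level reflects fewer cells that express a gene or less RNA in each cell cannot be told apart in such bulk libraries.

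In input, RAD21 was the most abundant of the 9 mRNAs at 121.5 ± 18.7 FPKM (SD, n = 9), followed by STAG2 at 110.05 ± 16.9 and SMC1A at 98.2 ± 13.2. The ranges of these 3 genes overlapped (77.5 to 139.5, 81.4 to 132.6 and 83.1 to 123 FPKM). PDS5A followed at 78.8 ± 5.44 FPKM, NIPBL at 46.7 ± 6.28 and SMC3 at 38.3 ± 6.03. CTCF (18.1 ± 3.46 FPKM), PDS5B (16.1 ± 2.52) and STAG1 (14.6 ± 1.85) were the least abundant, and their ranges overlapped. STAG2 thus exceeded its paralog STAG1 in each input library, with a ratio of 7.71 ± 1.76, PDS5A exceeded PDS5B with a ratio of 4.97 ± 0.61, and SMC1A exceeded its ring partner SMC3 with a ratio of 2.59 ± 0.34.

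**Figure D1:**
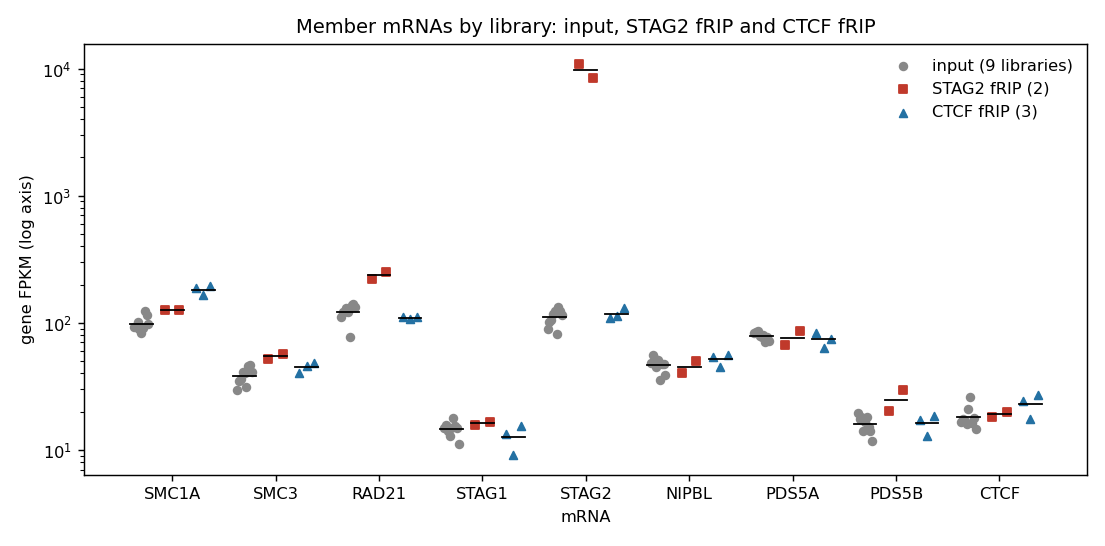
Level of each mRNA (FPKM, log axis) in the 9 input, 2 STAG2 fRIP and 3 CTCF fRIP libraries, with 1 point per library and a bar at each group mean. The STAG2 mRNA in STAG2 fRIP, at 8374.5 and 10951.9 FPKM, stands apart from all other points.

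STAG2 fRIP held its own mRNA far above input. STAG2 (ENSG00000101972.14, chrX:123094062-123556514, plus strand, hg19) reached 10951.9 FPKM in replicate 1 and 8374.5 FPKM in the other library, against 81.4 to 132.6 FPKM in input. The log2 fold change was 6.45 (SE 0.17, adjusted p = 1.08e-38, limma with Benjamini-Hochberg adjustment), a fold of 87.2 on the log2(FPKM + 1) scale, and an exact permutation test gave p = 0.0182, the lowest value possible with 2 libraries and 9 inputs. No other fRIP came near this level. The next highest group mean of STAG2 mRNA was 225.8 FPKM in SUZ12 fRIP, and the lowest were 79.3 FPKM in CHD4 fRIP and 52.2 FPKM in PABP fRIP.

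The main coding isoforms of STAG2 rose together. Of the 19 STAG2 isoforms, 13 were enriched in STAG2 fRIP (limma, adjusted p under 0.05 with a change beyond 1 on the log2 scale), and of the 57 tested isoforms of the other 8 genes 1 was, the incomplete coding STAG1 isoform ENST00000492318.1, at 0.148 FPKM in input and 3.53 in the fRIP. Across all isoforms tested, 1.98% were enriched in this fRIP and 2.82% depleted, and the 1 depleted among the members' isoforms was ENST00000503696.1 of PDS5A, listed at 0 in the fRIP. The most abundant isoform, ENST00000371157.3, rose from 60.8 FPKM in input to 4428.8 and 5766.4 FPKM in the STAG2 libraries (log2 fold change 6.38). ENST00000371145.3, which holds an extra exon of 111 bases, rose from 16.6 to 1370 FPKM (6.26), and ENST00000371144.3 from 6.91 to 1364 FPKM (7.48). Among those not called, ENST00000475602.1, which retains an intron, was at 1.53 FPKM in input and 0.66 FPKM in the fRIP, and ENST00000458176.1, a candidate for nonsense-mediated decay, was at 1.65 and 2.00 FPKM. The isoform most abundant in input held 55.0 ± 3.17% of the gene's FPKM there and 52.8% in STAG2 fRIP (exact permutation test, p = 0.327), a difference that these libraries could not show. An optional exon is one of the differences between the main isoforms, and its junctions are shown because both forms were enriched with the protein. In hg19 the junctions run from chrX:123224600-123224614 to chrX:123227868-123227882 where the exon is skipped, and to chrX:123224704-123224718 where it is included. The sequences below are from GENCODE v44 lifted to GRCh37 (hg19), read 5′ to 3′, with the last 15 bases of the upstream exon in lower case and the first 15 of the next exon in capitals.
ENST00000371157.3, exon skipped: acctcttgattataaTCGGCGTGGCACAAG
ENST00000371145.3, exon included: acctcttgattataaCACGCAGGTAACATG
The skipping junction occurs in 4 of the 18 STAG2 isoforms with a sequence and the including junction in 2, and neither occurs in a transcript of another gene. The most abundant input isoforms of STAG1 and STAG2 share no run longer than 21 bases, shorter than the 31-base reads.

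**Figure D2:**
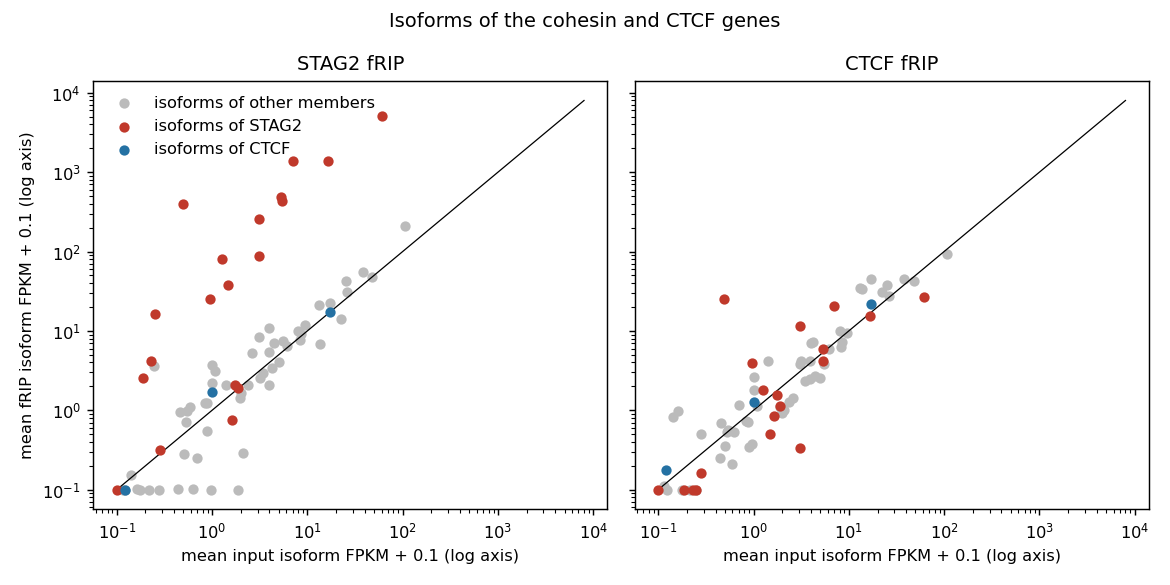
Mean FPKM + 0.1 of each isoform of the 9 genes in input (x axis, log) against STAG2 fRIP (left) and CTCF fRIP (right, y axes log), 1 point per isoform, with STAG2 isoforms in red, CTCF isoforms in blue, the others in grey and a line where both are equal. In STAG2 fRIP 13 of the 19 STAG2 isoforms were enriched, up to 5098 FPKM for ENST00000371157.3, and ENST00000475602.1 lies below the line, whereas in CTCF fRIP ENST00000371157.3 lies below it.

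The other subunits of the ring moved far less in STAG2 fRIP, and none passed the threshold of size. RAD21, which carries STAG2 in the complex, came closest, at 220.8 and 253.0 FPKM against 77.5 to 139.5 FPKM in input (log2 fold change 0.97, SE 0.17, adjusted p = 5.32e-05), a fold of 1.96. It passed the threshold when each library was centred on its median gene (log2 fold change 1.03) and against input set 2 alone, which holds the lowest RAD21 input library (77.5 FPKM). RAD21 was not called against input set 1 or 3 alone or with isoforms weighted by length. With 1 STAG2 library left, the change was 1.07 without STAG2 replicate 1 and 0.87 without the other library. SMC3 was at 52.3 and 57.2 FPKM against 29.3 to 47.0 in input (0.52, SE 0.16, adjusted p = 0.0228, limma), with 0.30 (adjusted p = 0.365) against input set 3 alone. The SMC3 change was 0.58 without STAG2 replicate 1 and 0.46 without the other library, each from 1 STAG2 library, so only sizes are given. SMC1A was at 125.8 and 126.4 FPKM against 83.1 to 123 (0.37, SE 0.14, adjusted p = 0.0801). Both libraries lay above every input library for each of these 3 genes. STAG1, the paralog, lay within the input range at 15.75 and 16.52 FPKM against 11.1 to 17.8 (0.14). The ratio of STAG2 to STAG1 was 507.0 and 695.2 in the fRIP libraries against 4.59 to 10.4 in input (difference 6.30 on the log2 scale, exact permutation test, p = 0.0182, adjusted p = 0.0503 over 72 tests of 3 ratios in 24 fRIPs).

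Of the regulators, PDS5B was at 20.4 and 29.4 FPKM in STAG2 fRIP against 11.7 to 19.4 in input (0.59, SE 0.18, adjusted p = 0.0242). The change was 0.84 without STAG2 replicate 1 and 0.34 without the other library, each from 1 STAG2 library, so only sizes are given. Against input set 1 alone the change was 0.40 (adjusted p = 0.214) and against input set 2 alone 0.57 (adjusted p = 0.0948). Its paralog PDS5A was at 66.5 and 86.5 FPKM (-0.05) and not called, as were the loader NIPBL at 40.2 and 50.2 FPKM (-0.04) and CTCF at 18.2 and 19.8 FPKM (0.08). In all, 1 of the 9 genes was enriched (background 0.979% of the genes tested) and 0 were depleted (background 3.36%) at the threshold of size, while 4 were higher at an adjusted p under 0.05 of any size (background 5.97%) and 0 were lower (background 7.19%; limma). The 2 STAG2 libraries lay above all 9 inputs for 5 of the 9 genes (background 7.30%). The median log2 fold change was 0.37 over the 9 genes and -0.03 over all genes tested.

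CTCF fRIP held no such excess of the mRNA of its own target. CTCF (chr16:67596370-67673080, plus strand) was at 24.4, 17.6 and 27.1 FPKM in the 3 CTCF libraries against 14.6 to 26.0 FPKM in input. The libraries overlapped the input range, and the difference did not pass the test (log2 fold change 0.33, SE 0.19, adjusted p = 0.291, limma; exact permutation test, p = 0.0636). The isoform most abundant in input, ENST00000264010.4, held 94.5% of the CTCF signal in CTCF fRIP and 94.8 ± 3.42% in input (exact permutation test, p = 0.873).

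SMC1A (chrX:53401070-53449677, minus strand) was the 1 member whose CTCF fRIP libraries all lay above every input, as did 5.75% of all genes. It was at 186.9, 164.9 and 194.7 FPKM, above each of the 9 inputs (83.1 to 123 FPKM), with a log2 fold change of 0.89 (SE 0.12, adjusted p = 2.56e-07, limma; exact permutation test, p = 0.00455, the lowest possible with 3 libraries and 9 inputs). This was a fold of 1.85 and fell short of the threshold of size, except against input set 2 alone (1.05). Group means of SMC1A were higher in SUZ12 (394.9 FPKM), CBP (215.7) and CBX3 (207.9) fRIP. The CTCF libraries overlapped those of CBX3 and HDAC1 (169.1) fRIP. SMC3, its ring partner, was at 39.95, 45.6 and 48.4 FPKM (0.23), and the ratio of SMC1A to SMC3 was 4.11 in CTCF fRIP against 2.59 ± 0.34 in input (adjusted p = 0.0234, exact permutation tests). Of its isoforms, 3 were enriched, the complete coding ENST00000375340.6 (13.1 FPKM in input, 34.5 in CTCF fRIP, log2 fold change 1.34), the incomplete ENST00000470241.1 (17.1 and 44.7, 1.37) and ENST00000428014.1 (13.6 and 33.4, 1.24), which is outside the reference annotation. The other complete coding isoform, ENST00000322213.4, was at 26.2 FPKM in input and 27.5 in the fRIP.

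The remaining members stayed within or close to the input range in CTCF fRIP. STAG2 was at 108.5, 114.0 and 131.6 FPKM (0.11), RAD21 at 110.3, 108.0 and 111.7 FPKM (-0.12), NIPBL at 54.0, 45.1 and 55.3 FPKM (0.14) and PDS5A at 83.4, 63.4 and 74.9 FPKM (-0.10). PDS5B (0.01) and STAG1 (-0.21) were not called either. Thus 0 of 9 genes were enriched (background 0.424%) and 0 depleted (background 0.790%), and 1 lay above every input library (background 5.75%). Below the level of the gene, STAG2 isoforms moved in opposite directions in CTCF fRIP. ENST00000371157.3 was lower (60.8 FPKM in input, 26.6 in the fRIP, log2 fold change -1.15). ENST00000354548.5, outside the reference annotation and listed at 0 to 3.15 FPKM in input, was higher at 25.0 FPKM. Over the isoforms of the 9 genes, 4 were enriched (background 2.50%) and 2 depleted (background 1.12%).

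Setting the 2 fRIPs against each other, without input, gave 2 members higher in STAG2 fRIP (background 1.55%) and 0 lower (background 2.43%). They were STAG2 (difference 6.34 on the log2 scale, adjusted p = 1.62e-34, a fold of 80.7) and RAD21 (1.10, SE 0.20, adjusted p = 1.19e-04), for which the libraries did not overlap. Without the second STAG2 library the RAD21 difference was 1.00 and no longer beyond the threshold. SMC1A was lower in STAG2 fRIP than in CTCF fRIP by a smaller amount (-0.52, SE 0.17, adjusted p = 0.0309, limma), which did not pass on centred libraries (-0.50, adjusted p = 0.123).

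Across all 24 proteins, the 9 mRNAs gave 216 comparisons with input, which share the 9 input libraries. Of these, 12 were enriched (5.56%) and 9 depleted (4.17%), in 9 of the fRIPs, where the share over all genes and fRIPs was 6.90% and 5.52%. All libraries of a fRIP lay above every input in 54 of the 216 (25.0%; background 14.7%) and below in 25 (11.6%; background 12.9%). SUZ12 fRIP held 7 of the 12 enriched members and PABP fRIP 6 of the 9 depleted ones.

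**Figure D3:**
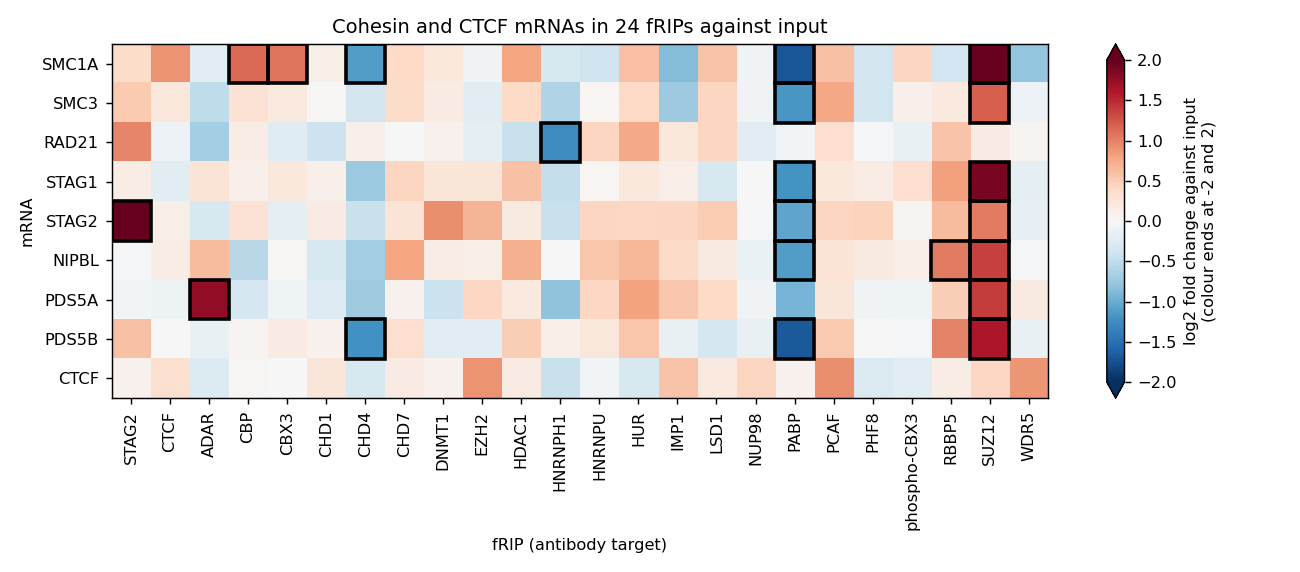
Log2 fold change of the 9 mRNAs (rows) against input in each of 24 fRIPs (columns) on the log2(FPKM + 1) scale, with colours that end at -2 and 2 and black boxes around called members. The SUZ12 column holds 7 enriched members and the PABP column 6 depleted members, and STAG2 in its own fRIP, at 6.45, lies beyond the end of the colour scale.

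SUZ12, a subunit of the Polycomb repressive complex 2, brought down more of most of these mRNAs than input held. SMC1A was at 369.3, 357.3 and 458.1 FPKM (log2 fold change 2.00), STAG1 at 57.7, 44.6 and 70.8 (1.90) and PDS5B at 49.7, 46.3 and 58.1 (1.62). PDS5A was at 198.9, 193.4 and 238.7 FPKM (1.40), NIPBL at 111.0, 125.4 and 129.7 (1.37), SMC3 at 73.8, 94.4 and 98.1 (1.20) and STAG2 at 207.4, 213.6 and 256.4 (1.04). These 7 were enriched (background 15.3%, limma) and lay above every input library (background 23.9%). RAD21 at 129.2, 140.0 and 134.9 FPKM (0.16) and CTCF at 24.1, 18.9 and 30.8 FPKM (0.42) were not called. Against input set 3 alone, STAG2 and SMC3 were not called. STAG2 was also not called without SUZ12 replicate 3 (0.94) or without replicate 3 of input set 2 (0.99). With isoform values weighted by isoform length, 5 of the 7 stayed enriched, while PDS5A was at 0.85 and STAG2 at -0.18, and 3 member isoforms without a length were left out.

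In SUZ12 fRIP the increases of NIPBL and SMC3 lay mainly on complete coding isoforms. These summed to 31.9 and 38.2 FPKM in input and to 84.8 and 88.5 FPKM in the fRIP. The increases of the other enriched genes lay mostly on isoforms not listed as complete coding. Of the members' isoforms, 36 were enriched in SUZ12 fRIP (background 21.3%) and 2 depleted (background 6.47%). The enriched ones comprised 13 of 20 retained intron isoforms, 6 of 7 candidates for nonsense-mediated decay and 9 of 25 tested complete coding isoforms. No share per class over all isoforms was taken, so whether this split is particular to the members was not tested. In STAG2, ENST00000371157.3 fell from 60.8 to 17.8 FPKM (log2 fold change -1.70) while ENST00000354548.5 reached 64.3 FPKM. The latter is outside the reference annotation, so its class is unknown. It counts as not complete coding in the shares that follow. The share of a gene's FPKM on complete coding isoforms was below every input library for 7 of the 9 genes (background 46.9% of 10318 genes). It was 30.7% against 82.3% in input for STAG2, 43.2% against 75.0% for STAG1, 9.21% against 27.2% for PDS5B and 63.9% against 94.9% for CTCF. SMC3 (99.7% in both) and NIPBL (69.4% and 68.4%) overlapped input. The lower share was not limited to SUZ12 fRIP, since 6 of 9 genes were below every input in DNMT1 (background 34.3%), CBX3 (33.8%) and HNRNPH1 (46.0%) fRIP. In DNMT1 fRIP the share was 23.2% for STAG2 and 43.8% for SMC3.

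The isoforms of SMC1A did not move alike in SUZ12 fRIP. The complete coding ENST00000322213.4 was not called, at 26.2 FPKM in input and 27.9 in SUZ12 fRIP, while ENST00000463684.1, a candidate for nonsense-mediated decay that skips 2 exons of 302 bases in all, went from 25.1 FPKM in input to 151.2 (136.2 to 179.8) in SUZ12 fRIP (log2 fold change 2.55) and to 0.859 in PABP fRIP (-3.80). The complete coding ENST00000375340.6 moved with the latter, from 13.1 FPKM in input to 86.1 in SUZ12 fRIP (2.63) and 0.018 in PABP fRIP. These are estimates per isoform, and reads across single junctions were not counted. The junctions by which the first pair differs both leave from chrX:53449441-53449455 on the minus strand and are shown with the downstream exon in capitals.
ENST00000322213.4: gacccaatggctctgGTAAGTCAAATCTCA
ENST00000463684.1: gacccaatggctctgGGTGCTGTGGAATCT
Each junction occurs in 1 of the 5 SMC1A isoforms with a sequence and in no other gene's transcripts.

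PABP, which binds the poly(A) tail of mature mRNAs, held less of most of these mRNAs than input did. SMC1A was at 35.1, 26.8 and 26.3 FPKM (log2 fold change -1.71), PDS5B at 6.11, 3.93 and 3.16 (-1.69) and STAG1 at 6.50, 6.24 and 4.74 (-1.19). SMC3 was at 18.3, 16.3 and 14.5 FPKM (-1.17), NIPBL at 23.4, 21.4 and 18.2 (-1.11) and STAG2 at 56.9, 52.9 and 46.7 (-1.05), and these 6 were depleted (background 14.7%). PDS5A, at 40.3, 45.3 and 36.7 FPKM (-0.93), was also below every input, which makes 7 of 9 genes (background 29.1%). When each library was centred on its median gene, SMC1A and PDS5B alone stayed depleted in PABP fRIP (background 6.93%). With isoforms weighted by length NIPBL (-1.61), PDS5B (-1.45) and SMC3 (-1.20) stayed depleted, and SMC1A (-0.95), STAG1 (-0.86) and STAG2 (-0.86) did not. Against input set 1 alone, STAG2 and SMC3 were not called and PDS5A was (-1.04). STAG2 was also not called without PABP replicate 3 (-0.97). RAD21 at 122.1, 114.5 and 108.5 FPKM and CTCF at 19.8, 20.8 and 16.9 FPKM overlapped input. The complete coding share was above every input library for 6 of 9 genes (background 33.6%), with 75.1% against 40.2% for SMC1A and 68.6% against 27.2% for PDS5B. CHD4 fRIP had as many above (6 of 9, background 27.1%), with 59.95% for SMC1A and 42.6% for PDS5B, and IMP1 fRIP had 5 (background 26.2%). NIPBL went the other way in PABP fRIP and in CHD4 fRIP (48.2%), in the former with 30.2% against 68.4%, as its coding isoform ENST00000448238.2 fell from 22.4 to 1.99 FPKM (-2.98) and the retained intron isoform ENST00000514335.1 rose from 6.06 to 13.7 FPKM (1.06).

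**Figure D4:**
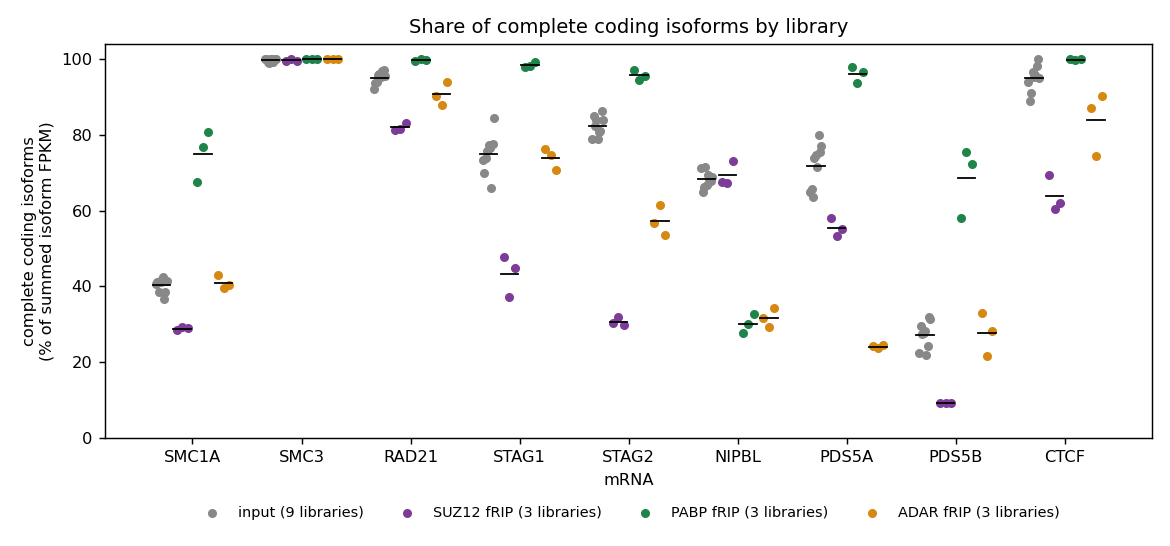
Share of each gene's isoform FPKM on complete coding isoforms (percent) in input, SUZ12, PABP and ADAR fRIP, with 1 point per library and a bar at each group mean. The SUZ12 points lie below every input point for 7 genes, the PABP points lie above every input point for 6 genes and below it for NIPBL, and PDS5A is lowest in ADAR at 24.1%.

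The CTCF gene was not called in PABP fRIP, but its isoforms were. The full-length ENST00000264010.4 fell from 17.2 FPKM in input to 7.20 (log2 fold change -1.14), and ENST00000401394.1, whose mean was 0.02 FPKM in input, was at 11.3 to 12.4 FPKM in the 3 PABP libraries (3.67). The latter skips 2 exons of 961 bases in all and its coding sequence is 1197 bases long, against 2181 bases in the former. The junctions leave from chr16:67605153-67605167 and reach chr16:67644727-67644741 in the full-length form and chr16:67650648-67650662 in the short form. The capitals mark the downstream exon.
ENST00000264010.4: tgcagccacggagagGCAGGGGAAATGGAA
ENST00000401394.1: tgcagccacggagagGTACTCGTCCTCACA
Each junction occurs in 1 of 3 CTCF isoforms with a sequence. In PABP fRIP, 27 of the members' isoforms were depleted (background 16.1%) and 2 enriched (background 9.69%).

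The release regulator PDS5A (chr4:39824483-39979576, minus strand) was the member enriched in the fRIP of ADAR, the enzyme that deaminates adenosine in double-stranded RNA. It was at 271.6, 267.2 and 272.7 FPKM against 70.3 to 85.8 FPKM in input (log2 fold change 1.77, SE 0.10, adjusted p = 2.60e-23, limma; background 26.6% of genes enriched). This call did not hold once libraries were centred on the median gene (0.79) or isoform values were weighted by isoform length (0.30). On centred libraries 6 other members were depleted in ADAR fRIP (background 35.2%), and STAG1 and NIPBL were not called. PDS5B was not called (-0.15), and the PDS5A to PDS5B ratio was 19.2 in ADAR fRIP against 4.97 ± 0.61 in input (adjusted p = 0.0234, exact permutation tests). The increase lay on isoforms that retain an intron. The complete coding share was 24.1% in ADAR fRIP and 71.9% in input. Complete coding isoforms summed to 65.2 FPKM in ADAR fRIP and 56.3 in input, and all others to 205.3 and 22.4 FPKM. ENST00000506262.1 went from 3.84 FPKM in input to 82.3 (log2 fold change 4.19), ENST00000503867.1 from 1.91 to 36.4 (3.74), ENST00000503696.1 from 1.79 to 34.1 (3.74) and ENST00000508625.1 from 2.27 to 33.9 (3.52), while the main coding isoform ENST00000303538.8 was at 47.9 and 36.4 FPKM. All 4 were also enriched on centred libraries. Over the isoforms of the 9 genes, 13 were enriched (background 17.3%). The borders of the retained introns are shown with intron bases in capitals, in the order intron 2 (chr4:39978045-39978074), intron 21 (chr4:39874591-39874620), the end of intron 10 (chr4:39910146-39910175) and its start (chr4:39911849-39911878).
ENST00000506262.1: atcaaacgcctgaagGTAAGTGTCTGGACG
ENST00000503696.1: ctaatgaatgacaggGTAAGTTTCTCATTT
ENST00000503867.1: TTTCTCTTATTACAGaatatttaaaggtta
ENST00000508625.1: cgaaggatctcacagGTAAGCTAGCTGGTT
These isoforms are annotated at 351 to 640 bases, whereas ENST00000303538.8 has 7131.

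HNRNPH1, a splicing regulator, had less RAD21 mRNA than input. RAD21 (chr8:117858173-117887015, minus strand) was at 44.2, 51.5 and 56.1 FPKM against 77.5 to 139.5 FPKM in input (log2 fold change -1.24, adjusted p = 1.00e-10, limma; background 7.90% of genes depleted). It was depleted under every alternative tried, with -1.97 on centred libraries and -1.31 with isoforms weighted by length. RAD21 was the 1 member past the threshold of size, but 7 of the 9 members were lower at an adjusted p under 0.05 of any size (background 17.8%), and on centred libraries 7 were depleted (background 22.1%), all but NIPBL and PDS5B. With isoforms weighted by length PDS5A was depleted too (-1.63). The coding RAD21 isoform ENST00000297338.2 fell from 106.9 to 28.4 FPKM (-1.86), and ENST00000523547.1, without a defined coding sequence, went from 0.445 to 7.09 FPKM (2.46). The same coding isoform was also depleted in DNMT1 fRIP, at 44.4 FPKM (-1.23), where the gene was not called (background 5.45% of isoforms depleted).

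The other calls covered 1 or 2 members of a fRIP. SMC1A was enriched in CBP fRIP at 230.1, 227.0 and 190.1 FPKM (1.13; background 9.08%) and in CBX3 fRIP at 178.4, 215.6 and 229.8 FPKM (1.08; background 7.45%). Neither was called against input set 3 alone (0.94 and 0.88) or with isoforms weighted by length (0.98 and 0.80), and CBX3 fRIP fell to 0.94 on centred libraries. NIPBL was enriched in RBBP5 fRIP at 107.3, 101.9 and 82.8 FPKM (1.05; background 2.28%). It was not called on centred libraries (0.86), against input set 1 alone (0.89), with isoforms weighted by length (0.83), without RBBP5 replicate 1 (0.97) or without replicate 3 of input set 2 (just under 1). CHD4 fRIP was depleted of SMC1A at 44.7, 48.6 and 40.1 FPKM (-1.12) and of PDS5B at 7.10, 5.13 and 6.85 FPKM (-1.21; background 9.79%), and neither was called on centred libraries. SMC1A was also not called there against input set 2 alone (-0.96) or with isoforms weighted by length (-0.64), nor PDS5B against input set 3 alone.

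Smaller changes were shared by more members. At an adjusted p under 0.05 of any size (limma), 7 of 9 members were higher in HUR fRIP (background 25.0%) and 6 in RBBP5 fRIP (background 14.0%), and 7 were lower in CHD4 fRIP (background 25.6%). HUR binds AU-rich elements of mRNAs, and its fRIP held PDS5A at a mean of 138.8 FPKM (log2 fold change 0.81) and RAD21 at 203.2 FPKM (0.75). No member passed the threshold of size in HUR fRIP, also not on centred libraries, against single input sets or with isoforms weighted by length. In RBBP5 fRIP, PDS5B was at a mean of 32.9 FPKM (0.99) and SMC1A, at 74.6 FPKM (-0.38), was the 1 member lower (background 6.99%). PCAF, a histone acetyltransferase, had 5 members higher at any size (background 10.7%) and 0 enriched in the main comparison (background 0.515%). On centred libraries 5 were enriched there (background 11.8%), namely CTCF (1.55), SMC3 (1.38), SMC1A (1.19), PDS5B (1.13) and STAG2 (1.04), and with isoforms weighted by length 0 were. Centring added 0.61 to each log2 fold change of PCAF fRIP.

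CTCF mRNA was called in no fRIP in the main comparison. On centred libraries it was enriched in 4 fRIPs (PCAF 1.55, WDR5 1.26, EZH2 1.07 and IMP1 1.02) and depleted in 2 (ADAR -1.25 and HNRNPH1 -1.18), where 7.04% and 6.58% of all genes and fRIPs were called on that scale. Against input set 3 alone it was enriched in PCAF, EZH2 and WDR5 fRIP, and against input set 1 alone in PCAF fRIP. Its highest group means were in PCAF fRIP at 28.0, 34.8 and 43.98 FPKM (log2 fold change 0.93), EZH2 fRIP at 44.5 and 26.3 FPKM (0.90) and WDR5 fRIP at 26.5, 35.1 and 41.7 FPKM (0.89), each above all inputs. The lowest was in HNRNPH1 fRIP at a mean of 13.0 FPKM. PCAF and WDR5 are among the 4 proteins whose replicate numbers were taken, from correlations in these data, to pair with those of input set 2. The main comparison did not use this pairing. In these sets the spread between libraries followed the number. CTCF was at 16.1, 21.1 and 26.0 FPKM in replicates 1, 2 and 3 of input set 2, so that the fRIP to input ratio within a number was 1.74, 1.65 and 1.69 for PCAF and 1.65, 1.66 and 1.60 for WDR5. The same ratio was 1.02, 1.05 and 1.00 for CHD1 and 1.21, 1.17 and 1.16 for NUP98. RAD21 carried the opposite order in these sets, with the lowest level in replicate 3 of the input (77.5 FPKM) and of the PCAF (107.5), WDR5 (99.0), CHD1 (65.9) and NUP98 (73.4) fRIPs.

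Ratios between members within a library do not depend on how the library was scaled. SMC1A to SMC3 lay above every input in 5 fRIPs (CBX3 at 4.77, CBP at 4.66, SUZ12 at 4.49, CTCF at 4.11 and HDAC1 at 3.36) and below in 3 (CHD4 at 1.52, WDR5 at 1.63 and PABP at 1.79). The adjusted p over 72 exact permutation tests was 0.0234 for each of these but HDAC1 (0.0468). RBBP5 at 1.73 and HNRNPU at 1.90 also passed below input (adjusted p = 0.0344 for both, exact permutation tests), with a library inside the input range. PDS5A to PDS5B lay above every input in 5 fRIPs (ADAR at 19.2, PABP at 9.92, LSD1 at 8.72, IMP1 at 8.16 and CHD4 at 7.53) and below in 5. Of the latter, HNRNPH1 at 2.57, RBBP5 at 3.41 (adjusted p = 0.0234 for both) and HDAC1 at 3.99 (adjusted p = 0.0344) passed the exact permutation test, and STAG2 at 3.10 (adjusted p = 0.0503) and SUZ12 at 4.09 (adjusted p = 0.0992) did not. For STAG2 to STAG1, STAG2 fRIP was the 1 fRIP with every library outside the input range. LSD1 (13.9, adjusted p = 0.0344), DNMT1 (12.2, adjusted p = 0.0468) and SUZ12 (4.00, adjusted p = 0.0344) passed the exact permutation test with a library inside that range.

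**Figure D5:**
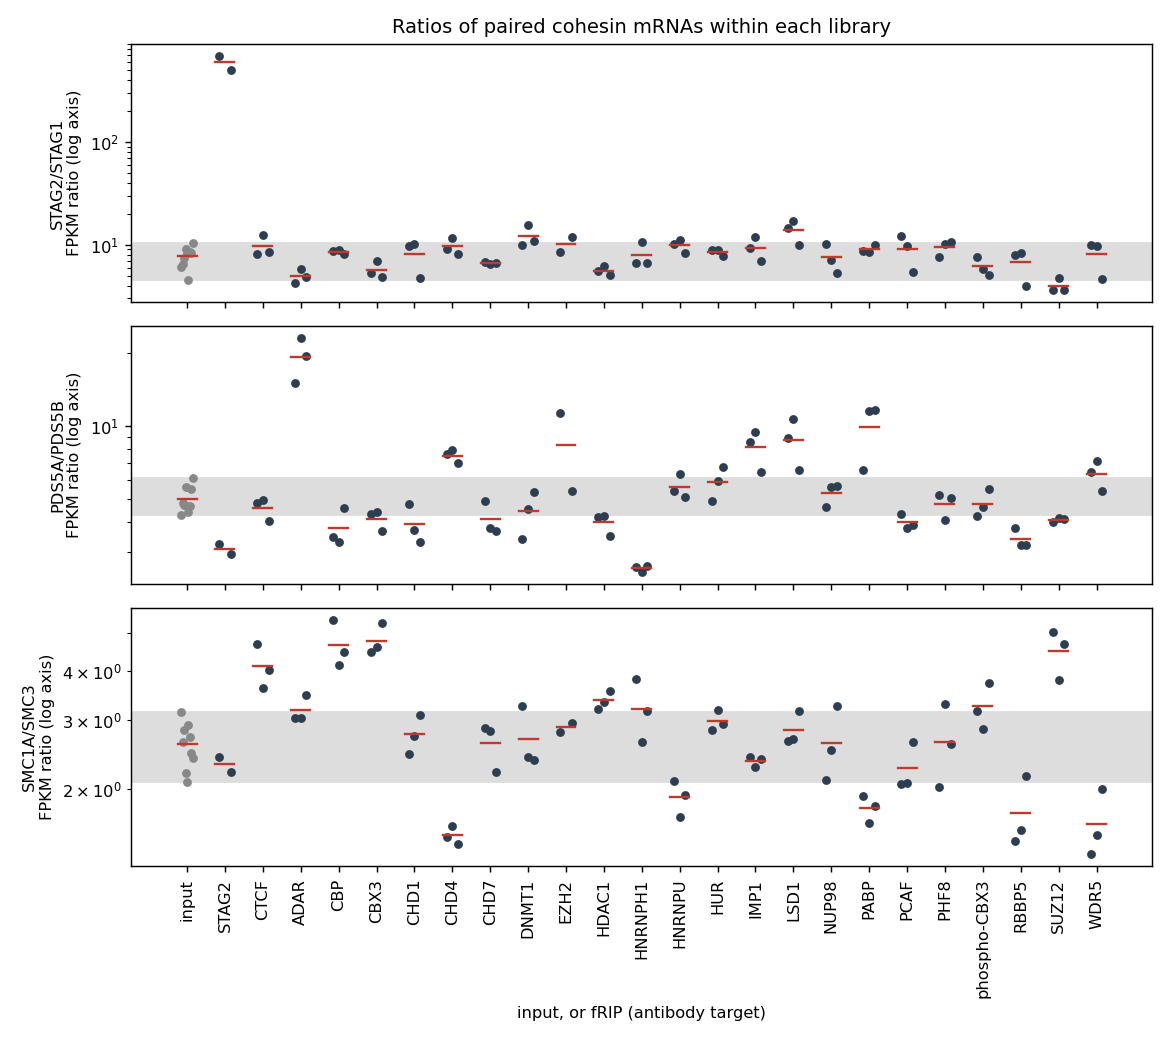
FPKM ratios of STAG2 to STAG1, PDS5A to PDS5B and SMC1A to SMC3 (log axes) in input and each fRIP, with 1 point per library, a red bar at each group mean and the input range shaded. STAG2 fRIP stands at 507.0 and 695.2 in the top panel, ADAR at a mean of 19.2 in the middle one, and CBX3 and CBP are highest in the bottom one.

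The genes around the 9 members were described in the same way. Of 35 other genes of the pathway (loading and release, boundaries, cohesion establishment, sister separation, meiotic cohesin, condensin and the SMC5/6 complex), STAG2 fRIP had 1 enriched, EID3 of the SMC5/6 complex, at 9.47 and 11.9 FPKM against 2.53 to 6.73 in input (log2 fold change 1.10, adjusted p = 0.0021), and 0 depleted (background 0.979% and 3.36%). CTCF fRIP had 0 of either (background 0.424% and 0.790%). Counts this near the background are no result about the pathway. SUZ12 fRIP had 18 enriched (background 15.3%) and 1 depleted (8.60%), among them 6 of 8 condensin genes, with SMC4 at 1319 FPKM against 165.2 in input (2.98). ADAR fRIP had 8 enriched, a share under the background of 26.6%, and 1 depleted (background 4.31%). ESPL1, the separase gene, was at 172.7 FPKM there against 23.5 (2.83) and MAU2, the partner of NIPBL, at 178.6 FPKM against 33.7 (2.38). PABP fRIP had 3 enriched (background 11.1%) and 9 depleted (14.7%). Both splits turned on centred libraries, to 2 enriched (background 11.6%) and 14 depleted (35.2%) in ADAR fRIP and to 9 enriched (20.9%) and 2 depleted (6.93%) in PABP fRIP. Centring also moved PCAF fRIP from 0 enriched and 1 depleted (background 0.515% and 8.54%) to 14 enriched (11.8%) and 0 depleted (2.54%), and HNRNPH1 fRIP from 5 enriched and 7 depleted (24.5% and 7.90%) to 2 and 18 (8.59% and 22.1%). DDX11, a helicase of cohesion establishment, was at 119.3 FPKM in CBP fRIP against 19.5 in input (2.56), and YY1, another loop factor, at 191.9 FPKM in WDR5 fRIP against 54.3 (1.80).

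The pattern most like that of STAG2 mRNA over input and the 24 fRIPs was that of GOLGB1 (Pearson's r = 0.917 over 25 group means on the log2 scale, among 8310 genes), followed by IMMT (0.868) and CCP110 (0.801). Without STAG2 fRIP the nearest were DICER1 (0.868), PPP6R3 (0.867) and OSBPL8 (0.864). For CTCF mRNA they were PRPF4 (0.822), BCOR (0.810) and FAM35A (0.795). The means of a library share its scale, and these values describe likeness only.

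The 9 mRNAs share features that the choice by name did not use. The most abundant input isoform was longer than the median of 10433 coding genes (2784 bases) for all 9, from 3660 bases for RAD21 to 9710 for SMC1A, and all 9 had more exons than the median of 8 and a GC content below the median of 48.4%. The 3′ UTR was longer than the median of 972 bases for 8, the exception being NIPBL, whose top isoform has 170 bases. The motif TTTTAAAA, searched on the transcript strand, was in the 3′ UTR of 7 of 9, against 31.7% of all genes and 50.5% of genes with 3′ UTRs of 1000 to 6000 bases. ATTTA was in 8 of 9, against 66.9% of all genes. That share is not matched for 3′ UTR length, so it is not a like comparison. Sequence shared with other genes was limited for most. The share of 31-base words also found in another gene was 20.4% for STAG1 (mostly PCCB), 8.88% for RAD21 (its pseudogene RAD21P1, its antisense gene RAD21-AS1 and UTP23), 7.87% for SMC3 (mostly SMC3P1) and 4.00% for STAG2 (TENM1), and at most 1.51% for the others. The libraries do not mark strand, so reads of RAD21 and RAD21-AS1 cannot be told apart there.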

How the data were processed

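Total RNA of formaldehyde-treated K562 cells was recovered by fRIP or taken as input, depleted of ribosomal RNA and sequenced as paired reads from libraries that keep no strand. The authors aligned reads to hg19 with TopHat and estimated GENCODE v18 genes and isoforms with Cuffdiff 2, and the deposited tables give FPKM per library. The submitters' processing notes also name CASAVA 1.4 and Cuffnorm. The strand setting of the counting is not given in the sources used here. A deposited table of the authors' own comparisons (group values, test statistics, p-values and q-values) was not used. The members and the gene lists were chosen with earlier results of these data known.

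FPKM + 1 was taken to log2, genes and isoforms that reached 1 FPKM in 2 or more libraries were tested (25442 genes, 104506 isoforms), and limma 3.58.1 (R 4.3.3) with an intensity trend was fitted with a term per protein and another for the 9 inputs over the 79 libraries. Benjamini-Hochberg adjustment of p-values covered every gene or isoform of a comparison. A member was called where its adjusted p was under 0.05 and its fold change over 2. Single values were also tested by exact two-sided permutation over libraries. Every fold change is on the log2(FPKM + 1) scale and understates the change of low genes. Genes named one by one are the 9 members, their isoforms with at least 1 FPKM in a group, cell markers and the genes with the nearest patterns. Of the pathway, they are the gene called in STAG2 fRIP and, for most lists, the gene with the largest change. No gene of the meiotic cohesin list is named. Some marker genes are not reported here. The fit was tested on simulated data. Python 3.11.15 with numpy 2.4.6 made the other tables.

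Depth was estimated in genes with a single isoform, whose FPKM values are multiples of what 1 fragment is worth (84.4% to 90.6% were whole within 0.15). Fragments are PCR products without molecular identifiers. By the methods, replicates came from different dates and lysates. The labels do not say which input set belongs to which protein. The second STAG2 library is numbered 3 in the labels and 2 in the table, and was mostly used without a number. In the replicate block and in the runs that left out a replicate number it counted as 3. Numbers were taken to pair libraries for CHD1, NUP98, PCAF and WDR5 with input set 2, where all 3 correlations of deviations from group means were over 0.1 (0.129 to 0.599), a finding from the data and not from the design. RBBP5, at 0.088 to 0.445 with input set 2, fell just short of this cutoff. Isoform classes and sequences are from GENCODE v44 lifted to hg19, in which 3 of 77 isoforms were not matched. Alternatives were another pseudocount (0.1 FPKM) and other filters, centring, each input set alone, a replicate block, the protein's own libraries and inputs alone, and leaving out libraries. Weighting isoforms by length, and leaving out libraries for isoform shares, were added after seeing the data.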

Additional observations from a re-analysis of the deposited data

Results flagged for a closer look

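STAG2 and RAD21 mRNA differed between the fRIPs of STAG2 and CTCF by a test of the difference itself. The difference was 6.34 on the log2 scale for STAG2 and 1.10 for RAD21 (limma, Benjamini-Hochberg adjusted p = 1.62e-34 and 1.19e-04), and without the second STAG2 library that of RAD21 was 1.00, not past the threshold.

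Among the 9 input libraries, RAD21 was low in replicate 3 of input set 2 at 77.5 FPKM, far from the other 8 by Dixon's criterion, which by chance flags about 1 in 20 groups.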

How the results depend on the processing

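STAG2 mRNA in STAG2 fRIP stayed enriched under each alternative, with 6.25 to 6.64 on the log2 scale when single libraries were left out, and CTCF mRNA in CTCF fRIP stayed uncalled under each (0.20 to 0.50). Members enriched in STAG2 fRIP numbered 2 on centred libraries and 2 with input set 2 alone, and 1 to 2 with libraries left out. Members enriched in CTCF fRIP numbered 1 with input set 2 alone. Of the 216 pairs, 19 were enriched and 15 depleted on centred libraries, 6 enriched and 6 depleted with isoforms weighted by length, and 10 to 16 enriched with a replicate number left out. Members higher in STAG2 than in CTCF fRIP numbered 1 to 2 with libraries left out. Centring shifted fRIP medians by -0.98 to 0.61, by over 0.1 in 17 fRIPs. Weighting by length, which leaves out the 3 member isoforms without a length, turned STAG2 in SUZ12 fRIP to -0.18 from 1.04. The replicate block left 12 enriched and 9 depleted pairs and changed no call of a named member. Depth limits single isoforms of low genes.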
